A study of Homo sapiens with 6 samples.

Results

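Among the genomic regions that were called differentially methylated when HepG2 cells overexpressed DNMT3A, 1440 of 4344 (33.1%) started from a low but not empty control level and were higher after overexpression. A region was taken when its mean methylation level, a fraction from 0 to 1, was at least 0.10 and under 0.30 in the control library and larger in the overexpressing library of the same number. The 3 lists, one for each numbered pair of libraries, held 508, 450 and 482 such regions. These were 34.3%, 31.4% and 33.8% of all listed regions and 41.7%, 38.4% and 41.6% of the gains, the regions that were higher after overexpression. Gains in turn were 82.1%, 81.7% and 81.1% of the lists (81.6% over all 3). Once overlapping regions of different lists were merged, the 1440 calls fell on 1086 distinct places of 3313.

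DNMT3A is a de novo DNA methyltransferase: it adds methyl groups to cytosines in CpG dinucleotides that carry none on either strand, while DNMT1 copies existing methylation at replication. Most CpGs of a somatic genome are methylated, above all in gene bodies and between genes, and CpG-rich promoters are mostly kept free of methyl groups. A level between these states is a mean over many cells and both alleles, so it can stand for cells that differ, alleles that differ or neighbouring CpGs that differ.

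HepG2 is an established human liver cancer line. The control cells, labelled WT, were infected with a control lentivirus, and the other cells with a lentivirus that carries DNMT3A; both groups therefore went through infection, and each had 3 libraries. Methylation was read with RRBS (reduced representation bisulfite sequencing), in which the enzyme MspI cuts at CCGG so that CpG-rich fragments are read, and bisulfite converts unmethylated cytosines. The labels give neither a promoter, a dose nor a clone for the vector, nor the days between infection and harvest, and they do not say whether the cultures behind the 3 libraries were separate, so that any spread given here may be technical. Library totals were 33512387 to 39245256 reads, of which 75.96% to 76.88% mapped. The lists hold methylation of called regions, with no reads per region, so the depth behind a level is unknown, and neither the DNMT3A level nor the cell type could be checked against expressed markers.

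Most of these regions lay away from start sites, but 7 places that met the rule in at least 2 pairs touched a promoter window, defined as 250 bases before to 50 after a RefSeq start. For 5 of them, a part is shown that lies upstream of the start and inside the window. It also lies inside a call of at least 1 pair that met the rule, so its CpGs lie inside places called higher. Sequences are from RefSeq (GRCh38.p14, the build of the lists), 5′ to 3′ along the gene's strand, with every CpG in capitals.
CPEB1 (chr15:82648063-82648137, minus strand): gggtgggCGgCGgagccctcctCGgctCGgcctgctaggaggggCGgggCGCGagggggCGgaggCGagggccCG
SLCO4A1-AS1 (chr20:62666732-62666871, minus strand): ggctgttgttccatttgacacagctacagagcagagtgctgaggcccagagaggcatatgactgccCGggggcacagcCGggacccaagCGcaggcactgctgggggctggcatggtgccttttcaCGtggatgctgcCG
TNFAIP8 (chr5:119355860-119356018, plus strand): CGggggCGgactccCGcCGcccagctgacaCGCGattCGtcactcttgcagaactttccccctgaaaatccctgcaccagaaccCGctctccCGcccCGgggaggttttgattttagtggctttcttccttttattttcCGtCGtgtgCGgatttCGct
ADAP1 (chr7:945903-946066, minus strand): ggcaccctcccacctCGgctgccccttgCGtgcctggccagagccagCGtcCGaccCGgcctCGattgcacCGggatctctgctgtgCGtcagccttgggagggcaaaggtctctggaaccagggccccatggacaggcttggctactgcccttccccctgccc
TET3 (chr2:74002468-74002578, plus strand): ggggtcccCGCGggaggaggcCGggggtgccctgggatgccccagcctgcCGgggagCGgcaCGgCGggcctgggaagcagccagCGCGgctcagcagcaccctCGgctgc

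The 5 stretches differ in CpG content. The stretch at CPEB1, whose product binds and regulates mRNA tails, packs 10 CpGs into 75 bases and has no CCGG, the site that MspI cuts. At TNFAIP8, which encodes a regulator of cell death, 14 CpGs lie in 159 bases with 1 CCGG; the stretch also lies upstream of a divergent transcript, LOC102723444. The stretches of ADAP1, a regulator of the small GTPase ARF6, and of the noncoding SLCO4A1-AS1 hold 8 CpGs in 164 bases and 5 in 140. That of TET3, a dioxygenase that oxidises methylated cytosine, has 10 in 111 bases; it covers the calls of pairs 1 and 2, while the call of pair 3, which started below 0.10, runs on to 74002680, closer to the start, and that part is not shown. Over all 35116 promoter windows, 96.0% held a CG on the strand read, with a median of 14, and 63.1% held a CCGG.

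The end level differed among these promoters and, at CPEB1, between pairs. At CPEB1, the control level was 0.155 in pair 1 and 0.121 in pair 3, against 0.726 and 0.393 after overexpression; pair 2 did not list the place. At ADAP1, the region chr7:945903-946457 met the rule in all pairs, with 0.225, 0.160 and 0.239 in controls 1 to 3 and 0.513, 0.452 and 0.479 after overexpression. Its mean difference was 0.273 ± 0.0291 (SD, n = 3). Every overexpressing library lay above every control, as at all places that met the rule in all pairs. Only the call of pair 2, 945903 to 946115, covers the whole printed ADAP1 stretch. The calls of pairs 1 and 3, 946009 to 946457 and 945994 to 946051, cover parts of it, so their levels do not describe all printed CpGs.

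At SLCO4A1-AS1, the region chr20:62666732-62667048 had control levels of 0.0699, 0.182 and 0.126 in pairs 1 to 3, so that only pairs 2 and 3 were inside the limits, and 0.399, 0.586 and 0.465 after overexpression. At TNFAIP8, the region chr5:119355860-119356100 had 0.249, 0.292 and 0.307 in the controls, the last of them above the limit, and 0.580, 0.615 and 0.629 after overexpression. The 3 differences there were 0.331, 0.323 and 0.322. The region at TET3, chr2:74002468-74002680, ended far lower, at 0.217, 0.263 and 0.197, from 0.104, 0.115 and 0.0532. The other 2 places lay after the start: the region at VPS37B, a subunit of a complex that sorts membrane proteins, had control levels of 0.239 and 0.284 in pairs 1 and 3 and 0.484 and 0.470 after overexpression, while that at ZBED3-AS1, a noncoding RNA, met the rule in all pairs. The latter, chr5:77088091-77088276, had 0.182, 0.182 and 0.140 in the controls and 0.396, 0.354 and 0.351 after overexpression. Promoter windows were touched by 66 of the 1440 calls. The same count is not given over all listed regions, so this one is not read as high or low.

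The values that chose the regions are a description and were not tested. Control levels had medians of 0.182, 0.185 and 0.192 in pairs 1 to 3, and overexpressing levels had medians of 0.482, 0.485 and 0.501. The median difference was thus 0.294, 0.292 and 0.30. Few regions reached high levels: 15, 9 and 18 passed a level of 0.75, and the overexpressing level was at least 0.5 in 233, 202 and 242 regions (45.9%, 44.9% and 50.2%).

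Differences ran from 0.0882 to 0.739. Most were of 0.2 to under 0.4: 66.5%, 67.8% and 65.6% of the regions of pairs 1 to 3 lay there. Another 74, 76 and 70 differed by less than 0.2, and 33, 25 and 26 by at least 0.5. The size of the difference hardly varied with the starting level. Regions that started from 0.10 to under 0.15 had median differences of 0.283, 0.302 and 0.288, and those that started from 0.25 to under 0.30 had 0.288, 0.296 and 0.303. The end level was accordingly higher in the upper bands, since it is the sum of both: 20%, 26.5% and 27.5% of the lowest band reached 0.5, against 76.3%, 81.1% and 80.6% of the highest.

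**Figure D1:**
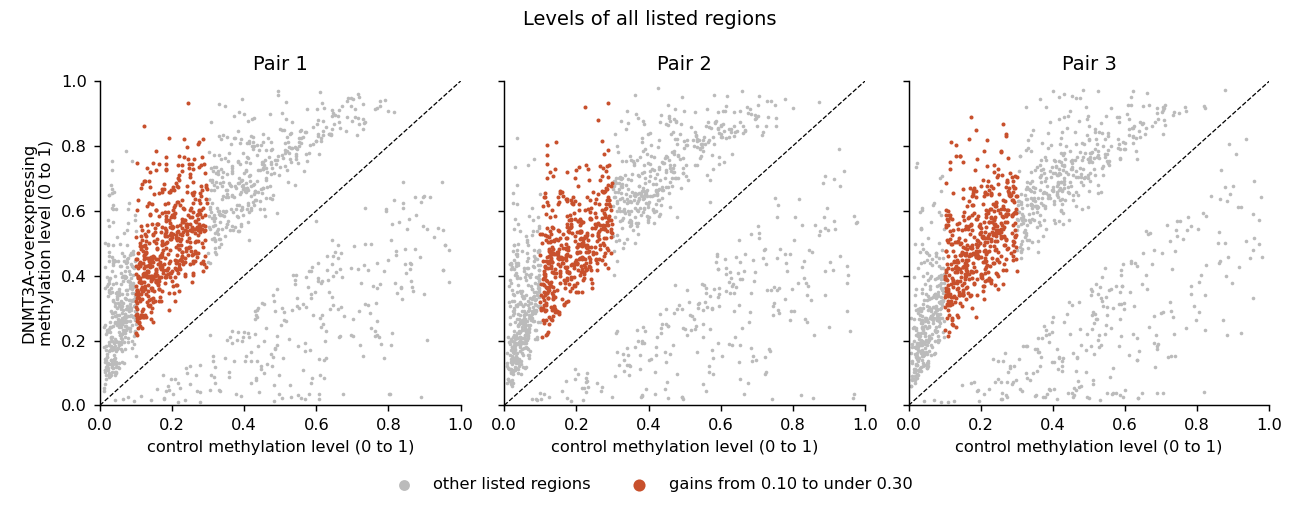
Methylation level (fraction, 0 to 1) of every listed region in the control (horizontal axis) and the DNMT3A-overexpressing library (vertical axis) of each pair. Gains that started from 0.10 to under 0.30 are coloured (508, 450 and 482 regions), all others are grey, and the dashed line marks equal levels.

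The limits cut through a continuous range. Around 0.10, the closest calls on the lower side were intergenic in pair 1 (chr6:34196118-34196189, 0.0997 in the control and 0.537 after overexpression), in ASB2 in pair 2 (0.0999 and 0.307) and intergenic in pair 3 (0.0993 and 0.260). Those just inside were at MRAP (0.1002 and 0.344), in LOC105371159 (0.1001 and 0.464) and in LOC105373411 (0.101 and 0.336). Around 0.30, the last regions inside were in CACNA1H (0.298 and 0.623), intergenic on chromosome 2 (0.298 and 0.685) and at SECTM1 (0.2997 and 0.414). The first outside were at SP9 (0.30013 and 0.441), DLK1 (0.302 and 0.681) and FAM210A (0.300004 and 0.575). Regions on either side of a limit thus had like control levels.

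These gains were next read in the libraries that had not chosen them. No library is shared between pairs, so a region chosen in one pair can be read in another where that list holds an overlapping call. Of the regions chosen in one list, 35.6% to 42.3% overlapped a call of a second list, over the 6 ordered pairs of lists. Of those overlaps, 97.1% to 99.4% were again higher after overexpression, where the lists as a whole gave 93.8% and 94.6% for pair 1 read in pairs 2 and 3, 94.5% and 95.4% for pair 2 read in pairs 1 and 3, and 94.6% and 93.2% for pair 3 read in pairs 1 and 2. The lists as a whole include losses, while the regions here were chosen as gains, so the shares are not on equal terms. The second list sees only what it called, so these shares say nothing of places it left out.

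On average 77.5% of the overlaps (72.7% to 82.6% over the 6 ordered pairs) were again gains with a control level of 0.10 to under 0.30. The same share was 45.8% (42.4% to 49.4%) over the overlaps of all gains, and 18.1% (13.8% to 21.7%) over those of gains that started outside the limits. For the regions chosen, the median gap between the control levels of both pairs was 0.0292 to 0.0337. Regions chosen in pair 1 and read in pair 2 had a median difference of 0.298 when chosen and 0.293 when read, and those chosen in pair 3 and read in pair 1 had 0.304 and 0.298. Single regions repeated less closely than these medians. Over the 6 ordered pairs, the Pearson correlation between chosen and read values was 0.304 to 0.639 for the difference. For the control level it was 0.558 to 0.642. Of 209 overlaps of pair 1 with pair 2, 32 had a control level under 0.10 in pair 2, 20 were gains from at least 0.30 and 5 were losses.

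**Figure D2:**
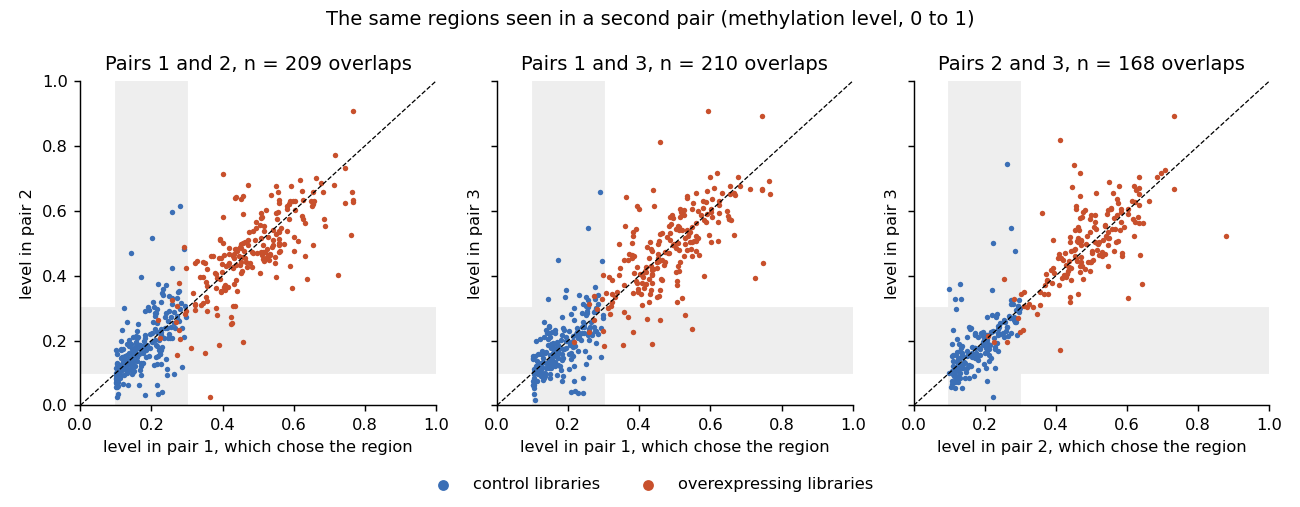
Level (fraction, 0 to 1) of regions chosen in one pair (horizontal axis) and of the overlapping call in a second pair (vertical axis), for control libraries (blue) and overexpressing libraries (orange). Grey bands mark 0.10 to 0.30 and the dashed line marks equal levels. Both clouds scatter around that line over 209, 210 and 168 overlaps, and some points lie far from it.

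Gains from these starting levels were met by a gain of another list more often, in each list, than gains that started higher. The share that met a gain of another list, as the mean over both other lists, was 38.3% ± 0.816 (SD, n = 3 lists) for regions from 0.10 to under 0.30. It was 38.3% ± 2.73 for gains from under 0.10 and 22.5% ± 1.01 for gains from at least 0.30. The 15.8 points over the latter were seen in 3 of 3 lists, with differences of 13.9 to 17.4 points. The exact two-sided sign-flip test over the lists gave p = 0.25, the smallest that 3 lists allow, and 0.75 after Benjamini-Hochberg adjustment over 12 comparisons, so no threshold was passed. An overlap counts for both lists that it joins, so the 3 values of this share are not independent. The test, the count of lists and every SD of this share, here and below, treat them as if they were. Counted as calls, 714 of 1440 (49.6%) met a gain of at least 1 other list, as did 44.1% of all gains and 37.4% of all listed regions. Over all listed regions, gains of pairs 2 and 3 met 28.0% and 27.5% of pair 1, gains of pairs 1 and 3 met 29.6% and 26.6% of pair 2, and gains of pairs 1 and 2 met 29.1% and 26.8% of pair 3.

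In CpG density and position the same regions stood close to the other gains. The median number of CpG cytosines per 100 bp, counted on both strands, was 10.1 ± 0.112 (SD, n = 3 lists), against 10.7 ± 0.235 for gains from under 0.10 and 11.9 ± 0.181 for gains from at least 0.30. It was lower than both in 3 of 3 lists (exact sign-flip p = 0.25 each, adjusted p = 0.75). The first order turned when only differences of at least 0.20 were kept, where the density was 0.991 higher than in gains from under 0.10.

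Gene bodies, here taken to start 1 kb inward of both ends of a gene, held 58.3% ± 0.950 of the regions, against 58.2% ± 1.01 and 59.0% ± 3.33 of the gains that started lower and higher (exact sign-flip p = 1 for both). Another 21.7% ± 0.543 lay within 1 kb of a gene's end, against 23.0% ± 3.05 and 20.6% ± 3.59 (exact sign-flip p = 0.75 for both). Start sites lay within 1 kb of 15.1% ± 1.37 of the regions, 18.5% ± 1.09 of the gains from under 0.10 and 15.5% ± 1.52 of those from at least 0.30. The lower share near start sites held in 3 of 3 lists against gains from under 0.10 (exact sign-flip p = 0.25, adjusted p = 0.75), and it turned to 1.08 points higher with differences of at least 0.20. Median lengths of 106 bp, 102 bp and 101 bp were within the spread between lists (exact sign-flip p = 0.5, adjusted p = 1).

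**Figure D3:**
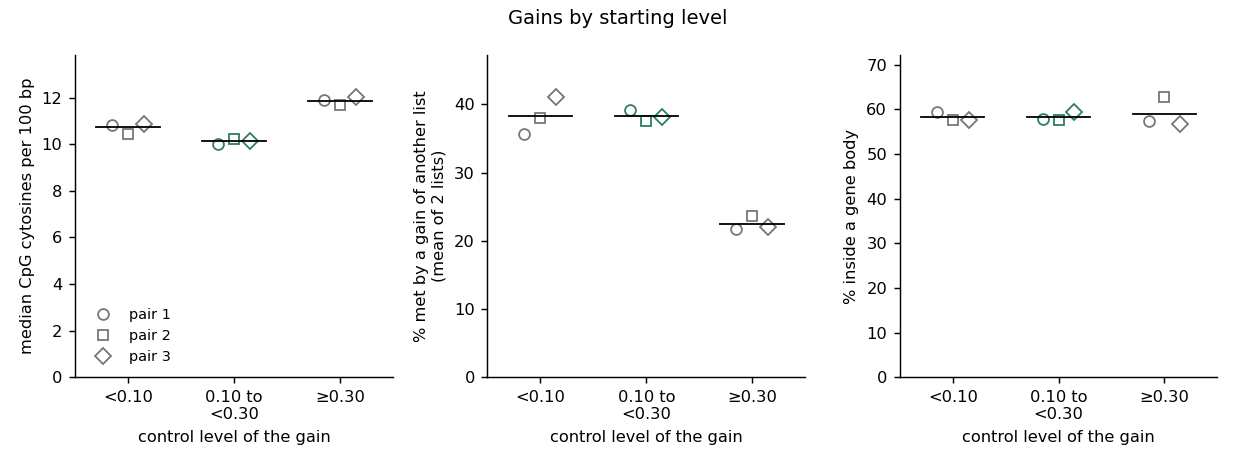
Median CpG density, share met by a gain of another list, and share inside gene bodies for gains grouped by control level; each symbol is one list and each bar the mean of 3. Only in the middle panel do the gains from at least 0.30 lie far below the other classes, at 22.5% against 38.3%.

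Within the regions, the share met by a gain of another list varied with how many CpG cytosines a region held. It was 20.1% ± 1.66 (SD, n = 3 lists) for the 345 regions with fewer than 8, 37.1% ± 2.82 for 8 to 11, 41.9% ± 2.66 for 12 to 19 and 55.6% ± 1.94 for the 306 with 20 or more. Small regions also showed the largest differences: the medians of these classes were 0.351, 0.310, 0.285 and 0.243. Recurrence rose with the size of the difference up to the class of 0.3 to under 0.4 and was lower above it. The share was 23.6% ± 5.34 for differences under 0.2 and 40.8% ± 0.701 for 0.2 to under 0.3. Regions that differed by 0.3 to under 0.4 were met in 48.0% ± 0.894 and those that differed by at least 0.4 in 29.8% ± 1.26. The latter held a median of 8 CpG cytosines. The rules by which the lists call regions are not known from the labels or headers.

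CpG density and starting level were related to recurrence as well. Regions with fewer than 8 CpG cytosines per 100 bp had a median difference of 0.364, and those with 16 or more had 0.205; 37.9% ± 2.16 and 28.0% ± 0.345 of them were met, with a maximum of 46.1% ± 3.42 at 8 to under 12. From the lowest to the highest starting band, the share was 42.6%, 43.0% and 45.3% in pairs 1 to 3 at the lower end and 30.1%, 28.9% and 28.1% at the upper end, so it was lower at the upper end in each list.

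**Figure D4:**
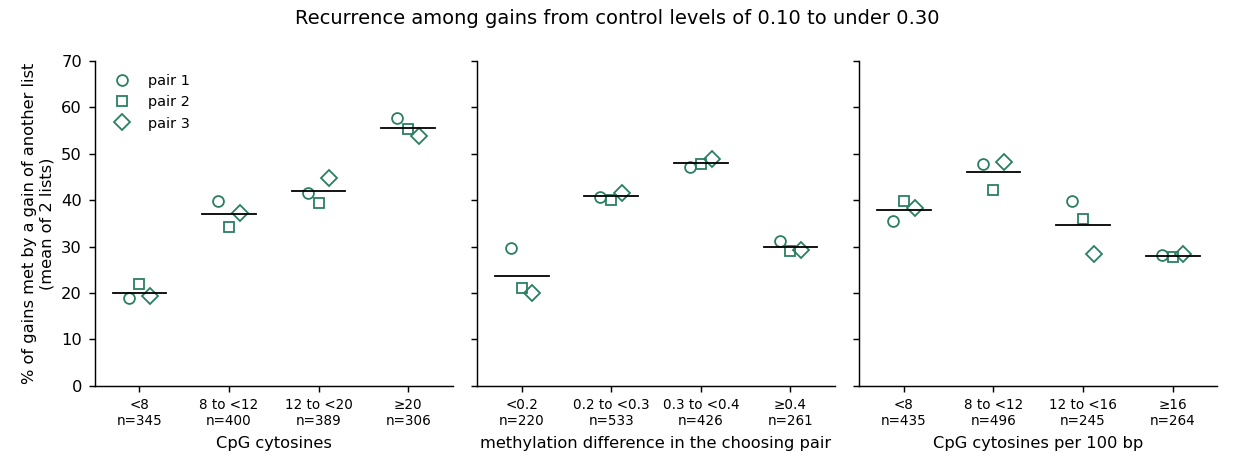
Share of regions met by a gain of another list (vertical axis, percent) by number of CpG cytosines, by difference in the pair that chose the region and by CpG density; each symbol is one list, bars are means of 3 lists and n counts regions. The share is 20.1% in regions with fewer than 8 CpG cytosines and 55.6% in those with 20 or more.

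After merging, 90 places met the rule in all 3 pairs, 168 in 2 and 828 in 1. Of all 3313 places, 8.21% were listed in every pair and 7.97% were higher in every pair. Of the 168, 126 were not listed in the remaining pair and 42 were listed there outside the limits. Of the 828, 707 stood in no other list; these are 65.1% of the 1086 places, and 78.2% of all 3313 places stood in 1 list. A place listed several times has more chances to meet the rule once, so the 2 shares are not on equal terms. Over the 90 places, control levels had a median of 0.178, overexpressing levels a median of 0.506 and differences a median of 0.313, with quartiles of 0.268 and 0.362. All 90 had every overexpressing library above every control, as did 95.6% of all 272 places listed in 3 pairs; calls in the same direction in each pair make such a separation likely.

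Over the 90 places, the median SD of 3 libraries was 0.0211 in the controls and 0.0312 after overexpression, and the latter was larger in 66 of 90; the rule holds all 3 control levels between 0.10 and 0.30 and sets no such limit on the overexpressing levels, so nothing is read from this. They held a median of 14 CpG cytosines over 137 bp, against 10 over 95 bp for the 828 places that met the rule in 1 pair only. Gene bodies held 59 (65.6%), against 51.2% of the places that met the rule in 1 pair only. Another 16 lay at gene ends and 15 between genes. A start site lay within 1 kb of 9 places, among them those at ADAP1 (87 bp), KSR1 (474 bp), EPHA1-AS1 (440 bp) and PRKCZ (745 bp), named after their values were seen. Across the 90 places, the mean difference and the CpG density had a Pearson correlation of -0.392 (Spearman -0.353), and the mean difference and the control level one of 0.0635 (Spearman 0.0616). All places come from the same 6 libraries, and these values are a description.

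The largest mean difference of the 90 places was 0.466 ± 0.0681 (SD, n = 3), in JARID2, and 12 places with the largest values were taken for a closer description. The region in JARID2 (chr6:15505114-15505255), whose product helps the Polycomb complex PRC2 to bind chromatin, had 0.151, 0.107 and 0.188 in control libraries 1 to 3 and 0.653, 0.616 and 0.575 in the overexpressing libraries of the same numbers. That in BICRA (chr19:47663111-47663245), a subunit of a SWI/SNF chromatin remodelling complex, had 0.209, 0.235 and 0.281 in controls 1 to 3 and 0.617, 0.694 and 0.718 after overexpression. DPF3, which encodes a histone-reading subunit of such complexes, had 0.139, 0.190 and 0.223 in controls 1 to 3 and 0.588, 0.622 and 0.566 after overexpression at chr14:72783845-72783949, a difference of 0.408 ± 0.0565 (SD, n = 3). In JARID2, BICRA and DPF3 the control and overexpressing libraries did not overlap, as at all 90 places, and these 3 were taken for their large differences.

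Among the other 9 of the 12 places, the spread between pairs varied widely. KCNQ1 (chr11:2533949-2534018), a potassium channel gene in an imprinted domain, and PITPNM2 (chr12:123075837-123075977), a phosphatidylinositol transfer protein, had differences that varied most between pairs, at 0.465 ± 0.106 (SD, n = 3) and 0.453 ± 0.123 (SD, n = 3). In KCNQ1 the levels were 0.163, 0.252 and 0.223 in controls 1 to 3 and 0.744, 0.625 and 0.665 after overexpression. In PITPNM2 they were 0.182, 0.290 and 0.216 in controls 1 to 3 and 0.767, 0.632 and 0.651 after overexpression, so pair 1 had both the lowest control and the highest overexpressing level. ECE1, the endothelin-converting enzyme, was the opposite case. Its region (chr1:21262675-21263113) also lies in LOC124903872, whose start site, 592 bp away, was the nearest. The levels there were 0.188, 0.185 and 0.175 in controls 1 to 3 and 0.625, 0.632 and 0.618 after overexpression. The difference of 0.442 ± 0.00498 (SD, n = 3) had the smallest SD of the 12 places.

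The region in TNS3 (chr7:47576813-47577051), which encodes a focal adhesion protein, had 0.156, 0.196 and 0.227 in controls 1 to 3 and 0.603, 0.630 and 0.580 after overexpression. The control and overexpressing libraries did not overlap, as at all 90 places. FOXF2-DT, a noncoding RNA divergent from the transcription factor gene FOXF2, had levels of 0.179 to 0.20 in the controls and 0.576 to 0.684 after overexpression.

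No gene lay within 1 kb of 3 of the 12 places. At chr11:29305127-29305219, levels were 0.121 to 0.164 in the controls and 0.495 to 0.654 after overexpression. At chr1:211887429-211887562, they were 0.207 to 0.256 in the controls and 0.619 to 0.678 after overexpression, and at chr2:43187020-43187147 0.215 to 0.30 in the controls and 0.677 to 0.703 after overexpression. The last of these started closest to the upper limit. A second place on chromosome 2, chr2:43218135-43218418, lay near it and met the rule in all pairs too, with a difference of 0.344 ± 0.00946 (SD, n = 3); it was chosen after its values were seen.

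At the other end of the 90 places, the 3 smallest mean differences all lay at gene ends. HES1, a basic helix-loop-helix repressor and target of Notch signalling, had 0.152, 0.164 and 0.148 in controls 1 to 3 and 0.321, 0.310 and 0.307 after overexpression at chr3:194138095-194138225. Its difference was 0.158 ± 0.0120 (SD, n = 3); the control and overexpressing SDs were 0.00847 and 0.00746. ARHGEF16, a guanine nucleotide exchange factor, had a difference of 0.185 ± 0.0332 (SD, n = 3), and the region at SLCO4A1 the smallest, 0.118 ± 0.0146 (SD, n = 3). The SLCO4A1 region, at an organic anion transporter gene, had 0.193, 0.151 and 0.210 in controls 1 to 3 and 0.296, 0.283 and 0.328 after overexpression. LINC01768, a noncoding RNA, had control levels of 0.168, 0.173 and 0.177 and overexpressing levels of 0.534, 0.467 and 0.645.

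**Figure D5:**
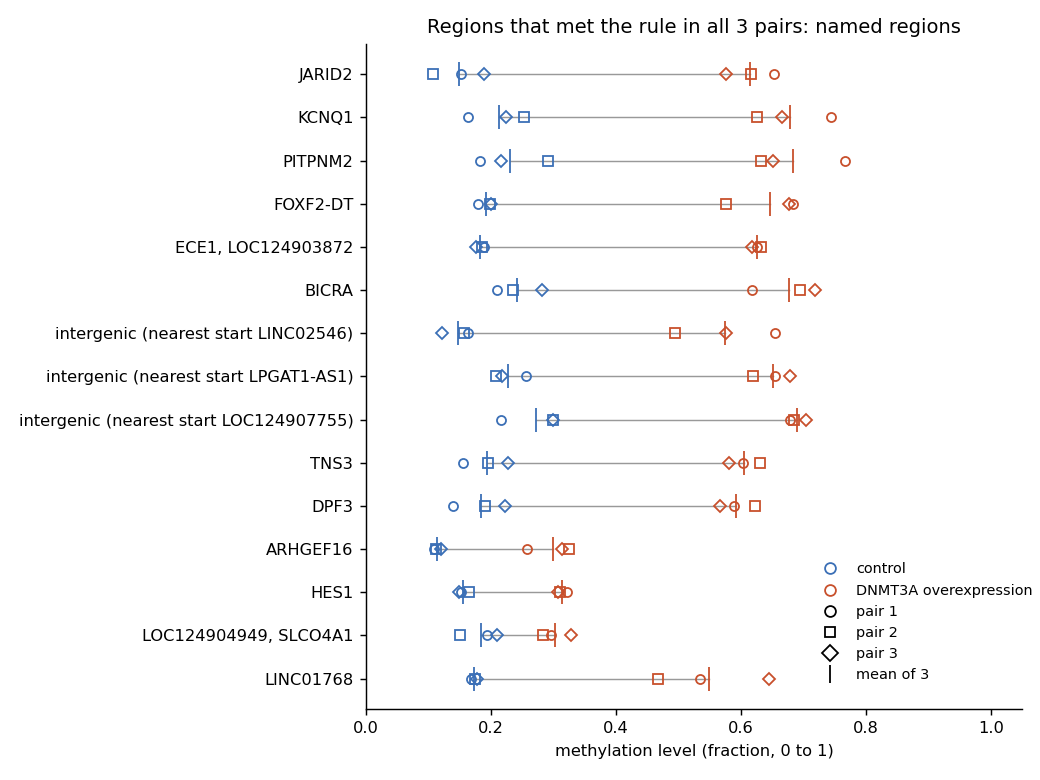
Methylation level (fraction, 0 to 1) in each of the 6 libraries at 15 places that met the rule in all pairs and had the largest, the smallest or the most variable difference; symbols are pairs, vertical bars are means of 3. In ECE1 the libraries of a group nearly coincide, and in PITPNM2 they spread. No place shown has overlapping groups, as is so at all 90 places that met the rule in all pairs.

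Some loci held several of the 90 places. At SLCO4A1, besides the small gain above, chr20:62652186-62652983 had levels of 0.216 to 0.265 in the controls and 0.515 to 0.605 after overexpression with a difference of 0.313 ± 0.0241 (SD, n = 3); the SLCO4A1-AS1 stretch printed above lies further along. PIEZO1, a mechanically gated ion channel, had differences of 0.323 ± 0.0222 (SD, n = 3) and 0.305 ± 0.0324 (SD, n = 3) at chr16:88770700-88771314 and chr16:88759348-88760866. GNG7, which encodes a G protein gamma subunit, held 3 of the 90, with differences of 0.360 ± 0.0387 (SD, n = 3), 0.290 ± 0.0117 (SD, n = 3) and 0.249 ± 0.0190 (SD, n = 3). SLCO4A1 and PIEZO1 were picked as such loci after their values were seen.

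GNG7 was 1 of the 6 genes with the most distinct places. Of 10 listed places within 1 kb of GNG7, 7 met the rule, 6 of them in at least 2 pairs. PTPRN2, a receptor-type phosphatase of secretory granules, had the most, 13 of 22, but 10 stood in 1 list only and none met the rule in all pairs. Among its 3 recurrent places, chr7:157737784-157737950 had control levels of 0.221 and 0.201 and overexpressing levels of 0.483 and 0.474 in pairs 1 and 2. BCL11B, a zinc finger transcription factor, had 10 of 12, of which 4 recurred.

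The region of BCL11B that met the rule in all pairs, chr14:99213235-99213431, had 0.149, 0.211 and 0.156 in controls 1 to 3 and 0.391, 0.513 and 0.544 after overexpression. CACNA1H, a T-type calcium channel, had 6 of 22; chr16:1174894-1174973 there had 0.136 and 0.185 in the controls of pairs 2 and 3 and 0.707 and 0.726 after overexpression, a mean difference of 0.556. PRDM16, a transcription regulator of brown fat and other tissues, had 6 of 10, with 2 recurrent. All 5 places listed at MYO9B, an unconventional myosin, met the rule. One of them, chr19:17136919-17137000, reached 0.931 from 0.244 in pair 1 with 5 CpG cytosines, and was listed in no other pair. Gene length was not taken into account.

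The largest differences of single pairs were in regions with 5 to 10 CpG cytosines, and 1 of the 6 places met the rule in another pair. In pair 1, the region in SLC39A11, a zinc transporter, had 0.122 in the control and 0.861 after overexpression over 5 CpG cytosines. In pair 2, MROH8 had 0.224 and 0.919 over 10, and LOC105377578 had 0.119 and 0.802 over 5. In pair 3, ADAMTS2, a procollagen peptidase, had 0.172 and 0.888 over 7, and TTC28 had 0.118 and 0.811 over 6. The other region of pair 1 is that of MYO9B above. The region in TTC28 was the one that met the rule elsewhere, in pair 1, at 0.142 and 0.459.

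Of the regions with the most CpG cytosines, 2 places were met again as gains and 1 was called lower elsewhere. RIPOR1 had a region with 153 CpG cytosines in pair 1 and 110 in pair 2. Its levels were 0.195, 0.219 and 0.355 in the controls, the last outside the limits, and 0.395, 0.456 and 0.616 after overexpression. At TNFAIP8L3, a lipid-binding relative of TNFAIP8, chr15:51093668-51094254 held 93, 81 and 91 and met the rule in all pairs. Its levels were 0.120, 0.136 and 0.120 in the controls and 0.438, 0.481 and 0.421 after overexpression, a difference of 0.322 ± 0.0220 (SD, n = 3). DIPK2A, a secreted kinase-like protein, had a region with 105 CpG cytosines in pair 3, at 0.236 and 0.493, which pair 2 listed as lower, at 0.513 and 0.318.

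Gene groups were described by how many of their genes had a place that met the rule in at least 2 pairs. Over all 2354 genes with any listed region within 1 kb, 220 (9.35%) did, with a median difference of 0.299 at these places, and 855 (36.3%) had a place that met it in at least 1 pair. Of 13 groups, which share some genes, 10 had a share above 9.35%. No group was tested, and the shares were not matched for gene length or for the number of listed regions per gene. The 2354 genes also include long noncoding ones, and the groups were chosen with earlier results of these data known. The number of groups above that share is therefore not read as a result. The counts below are given over the genes of a group that have any listed region.

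The group of nuclear factor I, Krueppel-like and PRDM transcription factors had 4 of 12 (33.3%): NFIX, NFIC, PRDM16 and BCL11B. BCL11B is a zinc finger factor that was placed in this group but belongs to none of these families. In NFIX, chr19:13055400-13055571 had 0.25, 0.219 and 0.279 in controls 1 to 3 and 0.558, 0.513 and 0.653 after overexpression. Homeobox genes had 3 of 25 (12%). ZFHX3, a homeobox and zinc finger factor, had 0.114 to 0.149 in the controls and 0.491 to 0.586 after overexpression, with a difference of 0.402 ± 0.0611 (SD, n = 3). MEIS2, a cofactor of HOX proteins, had 0.101, 0.0933 and 0.154 in the controls, pair 2 thus falling below the limit, and 0.518, 0.474 and 0.598 after overexpression. The third, LHX5, was listed in pairs 1 and 2 only. HES1 was the single gene of 23 (4.35%) among forkhead, SOX, T-box, GATA and basic helix-loop-helix factors.

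Chromatin and DNA methylation regulators had 4 of 22 (18.2%), namely JARID2, BICRA, BAHCC1 and TET3. BAHCC1, a chromatin protein with a bromo-adjacent homology domain, had 0.255 and 0.211 in the controls of pairs 2 and 3 and 0.470 and 0.442 after overexpression. The median difference of this group was 0.329. Receptor kinases, G proteins and GTPase regulators had 8 of 29 (27.6%), with a median difference of 0.287. Among them, EPHA2, an ephrin receptor, had 0.145, 0.0955 and 0.138 in the controls and 0.561, 0.475 and 0.505 after overexpression. The ligand EFNA2 (chr19:1289768-1289883) had 0.223 to 0.245 in the controls and 0.388 to 0.465 after overexpression, and EPHA1 (chr7:143408253-143408345), another receptor, 0.156 to 0.194 in the controls and 0.415 to 0.434 after overexpression. RAP1GAP, ARHGEF37, ARHGEF16, GNAS and GNG7 were the others.

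The groups of liver function and metabolism held few genes with a listed region. Of 5 hepatocyte genes with a listed region, 1 (20%) qualified: ASGR2, a subunit of the asialoglycoprotein receptor, with 0.213 and 0.199 in the controls of pairs 1 and 3 and 0.464 and 0.533 after overexpression. Lipid, cholesterol and glucose genes had 2 of 15 (13.3%). SLC2A1, the glucose transporter GLUT1, met the rule in all pairs at chr1:42959666-42960044, with 0.102, 0.129 and 0.148 in controls 1 to 3 and 0.357, 0.368 and 0.372 after overexpression. IGF1R, the receptor for insulin-like growth factor 1, had 0.104 and 0.102 in the controls of pairs 1 and 3 and 0.314 and 0.395 after overexpression. Markers of other cell types had none among 4 genes, but 2 of the 4 (50%) had a place that met the rule in 1 pair. Over all genes with a listed region, 36.3% had a place that met it in at least 1 pair.

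Ion channel and synaptic genes had 5 of 34 (14.7%), namely CACNA1H, KCNQ1, DLGAP1, PIEZO1 and SHANK1. The region in DLGAP1, a scaffold of the postsynaptic density, had levels of 0.123 to 0.217 in the controls and 0.512 to 0.580 after overexpression. Imprinted genes had 3 of 16 (18.8%), KCNQ1, GNAS and TRAPPC9. GNAS, which encodes the stimulatory G protein alpha subunit, had 0.208 and 0.124 in the controls of pairs 1 and 2 and 0.424 and 0.273 after overexpression. Matrix and adhesion genes had 4 of 37 (10.8%): SPOCK2, a proteoglycan, was highest with a mean difference of 0.422 over the 2 pairs that met the rule, and CELSR1, a planar polarity cadherin, had 0.137, 0.144 and 0.131 in controls 1 to 3 and 0.433, 0.467 and 0.430 after overexpression.

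WNT, Notch, TGF-beta and Hedgehog genes had 2 of 25 (8%). SMAD6, an inhibitor of BMP signalling, had 0.274, 0.263 and 0.243 in controls 1 to 3 and 0.559, 0.539 and 0.522 after overexpression at chr15:66707515-66707708, a difference of 0.280 ± 0.00449 (SD, n = 3) with the smallest SD among the 90 places. BMP6, a ligand of the same pathway, was listed in pairs 1 and 3 only, at 0.249 and 0.127 in the controls. Of genes known for methylation in cancers, 2 of 12 (16.7%) qualified: PTPRN2 and SEPTIN9, a cytoskeletal GTPase whose methylation is used to detect colorectal cancer. At SEPTIN9, chr17:77455293-77455384 had 0.139 and 0.125 in the controls of pairs 1 and 2 and 0.436 and 0.481 after overexpression.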

How the data were processed

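RRBS libraries of HepG2 cells, 3 with control lentivirus and 3 overexpressing DNMT3A, were studied through 3 lists of called regions and a mapping summary. The labels gave the group and number of each library. Each list sets the libraries of one number against each other, per the file headers. Levels are fractions computed by the authors per region, and the deposited difference (a score, as is the area value) equalled the overexpressing minus the control level in all 4344 rows within 1e-12. Total and mapped reads and the numbers of CpG sites per region are deposited counts; the mapping rate is a percent value of the authors. In 123 cases where a listed region lay inside a promoter window, the deposited number of sites was at most the number of CpG cytosines on both strands in 123 and above the number of CpG dinucleotides in 106, so it is called CpG cytosines here. Per the submitters' processing notes, coordinates are on hg38. An aligner, a caller and its thresholds were not given in the sources used here. A listed difference comes from the reads that led to the call, and no coverage minimum could be set.

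Rows of different lists that overlapped by at least 1 bp were merged in chains; a place met the rule in a pair when at least 1 of that pair's rows did, and its level is then the mean of those rows, weighted by CpG cytosines. Of the 90 places meeting it in all pairs, 8 had several rows of a pair and 4 also had rows outside the rule, which were left out of the level. Means and SDs cover the pairs in which a place met the rule. A region belonged to every RefSeq gene (20056 protein-coding, 18330 long noncoding) within 1 kb. Exons, introns and CpG islands were not used here. Gains were compared by starting level through one value per list, with an exact two-sided sign-flip test over 3 lists (smallest p 0.25) and Benjamini-Hochberg adjustment over 12 comparisons, 2 of them on start sites and added after seeing the data. These p-values rest on the spread between libraries alone, and that may be technical. For the share met by a gain of another list, the list values also share overlaps and are not independent. The numbers were kept as pairs: across the 90 places that met the rule in all pairs, deviations from the group means of same-numbered libraries correlated at 0.290, 0.273 and 0.274, although boundaries set pair by pair can raise such values. Scripts were tested on simulated data; python 3.11.15, numpy 2.4.6, pandas 2.3.3 and matplotlib 3.10.9 were used.

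Members and gene lists were chosen with earlier results of these data known. Named were the 12 places with the largest mean difference among those meeting the rule in all pairs, the 3 with the smallest and the 3 with the most variable, the 6 genes with the most places, up to 5 genes of each list, places at promoter windows, the extremes of each list, the regions beside each limit and up to 4 places of opposite direction; 1 of the 12 places is not reported here. Alternatives were narrower and wider limits, stricter calls, other windows, genes and overlaps, unpaired lists and each list left out.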

Additional observations from a re-analysis of the deposited data

How the results depend on the processing

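Of 120 alternative values, 93 kept their direction and side of the threshold or, for counts, stayed close to the main value, 19 changed sign and 8 moved. The excess of recurrence over gains from at least 0.30 kept its direction in all 8 alternatives (12.6 to 19.3 points), as did the lower CpG density against the same gains (-2.16 to -1.45). The differences in gene-body, gene-end and start-site share and in recurrence against gains from under 0.10 were small, and their sign depended on the setting. With differences of at least 0.20, density against gains from under 0.10 became 0.991, gene-end share 1.67, start-site share 1.08, and gene-body share against gains from at least 0.30 became 0.177. With narrower limits of 0.15 to under 0.25, gene-body share against gains from under 0.10 became -0.508 and start-site share against gains from at least 0.30 became 0.0497. With at least 8 CpG cytosines, gene-body share against gains from under 0.10 became -1.25, recurrence against the same -1.27, and start-site share against gains from at least 0.30 became 0.470. With protein-coding genes only, gene-body share became -3.14 against gains from under 0.10 and 0.477 against gains from at least 0.30, and gene-end share against the latter -0.614. Leaving out one list at a time gave, against gains from under 0.10, -0.782 to 0.844 for gene-body share, -3.05 to 0.542 for gene-end share and -2.78 to 1.77 for recurrence; against gains from at least 0.30 it gave -2.45 to 1.50, -0.474 to 3.38 and, for start-site share, -1.66 to 0.472. The cause was not tested.

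Narrower limits left 240, 204 and 246 regions and 29 places in all pairs, by construction. Asking for only 2 lists gave 129 to 159 places (159 without list 2). Identical boundaries gave 99.4% higher and 84.0% within the limits again. Without the replicate block, the exact permutation test of unpaired lists gave p = 0.1, the smallest it allows, and 0.3 adjusted for the recurrence excess and for each order seen in 3 of 3 lists, so pairing changed no call. Depth per region is unknown, calls absent from a list may be unread or unchanged, and 3 lists cannot reach p under 0.05.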

Other observations

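Of the 1086 distinct places, 21 met the rule in one pair and were called lower in another. The largest opposite value was at chr1:226100648-226100770, with no gene within 1 kb: pair 1 had a control level of 0.889 and 0.0248 after overexpression, and pair 3 had 0.115 and 0.7498. In TBX4, a T-box transcription factor of limb and lung, chr17:61462012-61462198 had 0.778 and 0.327 in pair 2 and 0.248 and 0.537 in pair 3. In SLC16A12, a monocarboxylate transporter, chr10:89535776-89535837 had 0.797 and 0.447 in pair 1 and 0.232 and 0.729 in pair 2. An intergenic place, chr10:130654948-130655098, had 0.141 and 0.389 in pair 1 and 0.469 and 0.185 in pair 2. In these 4 places the control libraries themselves lay far apart.

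The share of gains that started from 0.10 to under 0.30 varied by chromosome. Over all chromosomes it was 41.7%, 38.4% and 41.6% of the gains in pairs 1 to 3. On chromosome 14 it was 53.4% of 103 gains, and on chromosome 19 it was 47.6% of 269. Chromosome 19 held 12 of the 90 places that met the rule in all pairs and 8.89% of all calls that met it. Single genes gave many of these calls: BCL11B had 15 of the 55 on chromosome 14, and GNG7 had 16 of the 128 on chromosome 19. It was 23.2% of 69 gains on chromosome X. These shares count regions of 3 lists and were not tested.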
